A study of Mus musculus with 568 samples.

Results

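The 10 genes described here belong to bone morphogenetic protein (BMP) signalling and to the Id family, and were taken by name: the ligand gene *Bmp4*, the receptor genes *Bmpr1a* and *Bmpr2*, the signal-carrying *Smad1* and *Smad5*, the inhibitory *Smad6*, and the target genes *Id1*, *Id2*, *Id3* and *Msx1*. All 10 had a row among the 16335 genes of the bulk RNA-seq table and among the 15718 genes of the single-cell table. The study followed X-chromosome activity while female mouse embryonic stem cells (ESCs) were turned into primordial germ cell-like cells (PGCLCs), the culture counterpart of the founder cells of eggs and sperm. Every bulk group came from the XRep line, a hybrid with a musculus and a castaneus X chromosome. Its musculus X carries a *Tsix* truncation and a GFP reporter, its castaneus X carries tdTomato, and rtTA at *Rosa26* with piggyBac transgenes lets doxycycline switch on *Prdm14*, *Blimp1* and *Tfap2c*. The bulk data held 4 libraries of each of 4 groups: ESCs, expanded in serum and LIF; epiblast-like cells (EpiLCs), made with basic FGF and activin A over 2 passages of 48 h; and PGCLCs after 5 days in aggregates with doxycycline at 1.5 µg/ml. The PGCLCs were sorted for the surface markers SSEA1 and CD61 and split into XGFP+ cells, whose musculus X reporter was on, and XGFP- cells, whose reporter was off. Before induction ESCs spent a day in 2i/LIF, and the sources used here do not state clearly in which medium the ESC libraries were taken, so medium and cell state cannot be told apart in comparisons with ESCs. Because the transgenes replaced the cytokines, no BMP ligand was added to the PGCLC medium. Single cells came from reconstituted ovaries (rOvaries), in which sorted PGCLCs spent 6 days with gonadal and mesonephric somatic cells of E13.5 female embryos. These cells were sorted as XGFP+ constitutive, from XGFP+ PGCLCs, or as XGFPhigh, XGFPintermediate and XGFPlow, from XGFP- PGCLCs, and each population was a single sample.

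BMP ligands bind a pair of type I and type II receptors at the cell surface. The activated type I receptor phosphorylates SMAD1 and SMAD5, which join SMAD4, enter the nucleus and bind the control regions of target genes. Id proteins lack a DNA-binding region and hold E proteins, the partners of basic helix-loop-helix factors, away from DNA, while SMAD6 is a target that feeds back to restrain the receptors. In the mouse embryo, BMP4 from the extraembryonic ectoderm sets a few epiblast cells on the path to the germ line, and BMP signals later act on germ cells in the fetal ovary.

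Upstream sequences are shown for 4 target genes because their bulk levels fell into contrasting patterns, *Id3* and *Smad6* being highest in XGFP- PGCLCs and *Id2* and *Msx1* in EpiLCs. Each is the 250 bases before the RefSeq gene start on GRCm38.p6, written 5′ to 3′ on the gene's strand. Capitals mark 3 short motifs that were searched on both strands: GTCT or its complement AGAC, the SMAD-binding letters; GGCGCC, a GC-rich site of SMAD1 and SMAD5; and CANNTG, the E-box of basic helix-loop-helix factors. The windows lie at chr4:136143572-136143821 on the plus strand for *Id3*, and on the minus strand at chr9:64022060-64022309 for *Smad6*, chr12:25096093-25096342 for *Id2* and chr5:37824586-37824835 for *Msx1*.
Id3: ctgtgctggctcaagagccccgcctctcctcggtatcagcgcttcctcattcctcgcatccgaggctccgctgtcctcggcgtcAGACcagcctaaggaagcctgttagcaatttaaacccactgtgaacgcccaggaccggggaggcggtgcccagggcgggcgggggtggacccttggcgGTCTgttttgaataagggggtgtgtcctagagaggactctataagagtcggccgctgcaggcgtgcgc
Smad6: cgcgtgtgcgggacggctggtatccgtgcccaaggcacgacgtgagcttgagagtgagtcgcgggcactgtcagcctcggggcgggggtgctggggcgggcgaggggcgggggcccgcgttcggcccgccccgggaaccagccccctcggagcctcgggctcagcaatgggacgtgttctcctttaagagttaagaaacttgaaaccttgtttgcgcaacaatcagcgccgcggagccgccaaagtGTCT
Id2: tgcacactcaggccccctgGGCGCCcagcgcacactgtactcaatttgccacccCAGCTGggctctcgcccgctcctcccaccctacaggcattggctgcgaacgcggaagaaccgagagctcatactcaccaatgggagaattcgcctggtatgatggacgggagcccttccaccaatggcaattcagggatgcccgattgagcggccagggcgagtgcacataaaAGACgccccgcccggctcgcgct
Msx1: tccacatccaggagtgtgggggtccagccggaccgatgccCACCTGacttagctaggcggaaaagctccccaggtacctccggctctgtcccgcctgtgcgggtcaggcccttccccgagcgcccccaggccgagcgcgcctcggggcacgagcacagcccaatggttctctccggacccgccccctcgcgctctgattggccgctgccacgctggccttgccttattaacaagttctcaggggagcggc

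*Id2* held all 3 motifs, *Id3* held GTCT in both orientations, *Smad6* held GTCT next to its start and *Msx1* held only an E-box. Of 32851 windows of the same length in the reference table, 82.9% held GTCT on either strand, 9.59% held GGCGCC and 66.2% held CANNTG, so that GGCGCC is the rarest of these letters and the others are common. A window was found for 9 of the 10 genes, *Id1* being the one without. Among the genes not printed, GGCGCC stood 105 bases before the start of *Bmpr2*, 198 before that of *Bmpr1a* and 19 before 1 of the 3 starts of *Smad5*, and the *Smad1* window held none of the motifs. These matches are descriptions of letters, and no binding was measured.

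The bulk libraries held between 29778299 and 46533858 reads on genes, and libraries of a group differed by more than counting noise, with a chi-square per gene of 8.26 to 41.8 and a Spearman rho of 0.99 to 0.997. Per the study's text, the libraries of a group came from 2 clones with technical replicates of each, and the labels do not say which library is of which clone. Every SD, n = 4 and p-value therefore measures the spread between libraries, part of which is technical. The labelled cell types carried their markers: naive ESC markers summed to 154000 to 170500 normalized counts in ESCs and 6166 to 10510 in EpiLCs, and EpiLC markers to 51890 to 60660 in EpiLCs. Germ cell markers reached 53590 to 57160 in XGFP+ cells and 54780 to 59410 in XGFP- cells. They summed to 37070 to 39230 in ESCs and 28110 to 30350 in EpiLCs. The 9 germ cell markers did not all move alike by the limma test described below. Against EpiLCs, 7 rose and *Pou5f1* fell in XGFP+ cells (27.8% and 29.5% of all genes). In XGFP- cells 6 rose, and *Ddx4* and *Pou5f1* fell (29.9% and 31.9%). Among those that rose in both groups are *Prdm1*, which is *Blimp1*, and *Tfap2c*. Doxycycline switches both on in the PGCLC cultures, so their rise is no independent sign of cell type. The others that rose were *Dnd1*, *Dppa3*, *Kit* and *Nanos3* in both groups and *Dazl* in XGFP+ cells. *Dnd1* and *Kit* were higher in XGFP- than in XGFP+ cells, and *Dppa3*, *Ddx4* and *Dazl* lower (11.3% and 12.5%). The mesoderm markers *T* and *Mixl1*, which BMP signals can induce, ranged from 509.3 to 2845 among the EpiLC libraries and from 9.144 to 23.29 among the PGCLC libraries. Their part in the results on EpiLCs was not tested. Gonadal somatic markers (8 of 11 with a row; *Foxl2*, *Nr2f2* and *Lhx9* had none) stayed between 115.5 and 680.6. In bulk RNA, fewer cells of a type and less RNA per cell cannot be told apart.

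*Bmp4* (ENSMUSG00000021835, mm10 chr14:46383520-46390669) encodes the ligand. Its normalized counts in libraries 1 to 4 were 629.75, 474, 743 and 785 in ESCs and 80.001, 71.2, 76.5 and 66.2 in EpiLCs. In XGFP+ PGCLCs they were 168, 171, 125 and 159, and in XGFP- PGCLCs 42.5, 44.7, 36.5 and 48.4. The order was therefore ESC, XGFP+ PGCLC, EpiLC and XGFP- PGCLC, with no overlap between neighbouring groups, and the highest group mean was 15.3 times the lowest. Exons of *Bmp4* overlap those of *Gm15217* on the opposite strand, and the strand setting of the counting is not given in the sources used here, so reads of the pair cannot be told apart.

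The receptor genes varied least. *Bmpr1a* (ENSMUSG00000021796, chr14:34410734-34503341), the type I receptor gene, lay between 4390.1 and 6627 in all 16 libraries. Its group means were 5991 ± 505 in EpiLCs, 5309 ± 357 in XGFP- PGCLCs, 4819 ± 309 in ESCs and 4566 ± 184 in XGFP+ PGCLCs (SD, n = 4), and each neighbouring pair in that order overlapped. It shares exonic bases with the antisense *Gm17110*. *Bmpr2* (ENSMUSG00000067336, chr1:59763400-59879014), the type II receptor gene, had means of 738 ± 40.6 in XGFP- PGCLCs, 701 ± 72.5 in EpiLCs, 555 ± 59.6 in XGFP+ PGCLCs and 491 ± 13.3 in ESCs. Its EpiLC libraries lay above the XGFP+ libraries without overlap, while XGFP- overlapped EpiLC and XGFP+ overlapped ESC. Per kilobase of exon, *Bmpr1a* was the most abundant of the 10 genes in each group, at 719 to 943, and *Bmpr2* reached 27.3 to 41.1.

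*Smad1* (ENSMUSG00000031681, chr8:79338395-79399518) and *Smad5* (ENSMUSG00000021540, chr13:56703010-56742377) encode the proteins that the receptors phosphorylate. *Smad1* counts in libraries 1 to 4 were 607, 550.4, 512 and 546 in ESCs and 932, 988, 998 and 1144.5 in EpiLCs, then 769, 752, 845 and 768 in XGFP+ cells and 1062, 1020.1, 1144 and 1063 in XGFP- cells. XGFP- PGCLCs and EpiLCs overlapped at the top, and XGFP+ PGCLCs and ESCs each stood apart below them. *Smad5* counts were 2209, 2255, 2377 and 2595 in ESCs and 2439, 2673, 2753 and 3189.6 in EpiLCs, then 2288, 2364, 2625 and 2614 in XGFP+ cells and 3436, 3815, 4038 and 3893 in XGFP- cells. Every XGFP- library was above every other library, and the other groups overlapped. The short *Gm27301* lies on the same strand within the exons of *Smad5* and cannot be told apart from it.

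*Smad6* (ENSMUSG00000036867, chr9:63953076-64022059), the inhibitory SMAD gene, had counts of 68.5, 59.3, 71.5 and 71.3 in ESCs and 71.3, 69.2, 46.7 and 66.2 in EpiLCs. The XGFP+ libraries held 303, 225, 289 and 222, and the XGFP- libraries 350.1, 375, 379 and 348. Both PGCLC groups lay above all ESC and EpiLC libraries, which overlapped, and XGFP- lay above XGFP+.

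The Id genes did not share a pattern. *Id1* (ENSMUSG00000042745, chr2:152736251-152737410) had 108.9, 94.9, 99.9 and 114.3 in ESCs and 34.9, 28.7, 35.8 and 27.65 in EpiLCs, while XGFP+ PGCLCs held 55.3, 56.3, 46.9 and 55.5 and XGFP- PGCLCs 31.2, 43.7, 26.9 and 37.1. *Id2* (ENSMUSG00000020644, chr12:25093799-25097140) had 17.96, 20.75, 14.7 and 23.8 in ESCs, 394, 457, 524 and 723 in EpiLCs, with 60.8, 42.6, 66.05 and 52.8 in the XGFP+ libraries and 70.2, 93.5, 78.9 and 68.03 in the XGFP- libraries. *Id3* (ENSMUSG00000007872, chr4:136143497-136145755) had 572.5, 539.5, 653 and 759 in ESCs and 160, 119.65, 124.2 and 121.5 in EpiLCs. Its libraries reached 1071, 902, 993 and 946 in XGFP+ cells and 1572, 1449, 1248 and 1155 in XGFP- cells. *Id1* was thus highest in ESCs, *Id2* in EpiLCs and *Id3* in XGFP- PGCLCs, and the XGFP- and EpiLC libraries of *Id1* were the one neighbouring pair of the Id genes that overlapped. The highest group mean was 3.29 times the lowest for *Id1*, 10.3 times for *Id3* and 27.2 times for *Id2*. Per kilobase of exon, *Id3* was the leading Id gene in ESCs at 352 and in XGFP- PGCLCs at 757, and *Id2* led in EpiLCs at 215.

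*Msx1* (ENSMUSG00000048450, chr5:37820485-37824583), a homeobox gene induced by BMP signals, had 12.3, 8.89, 16.8 and 12.4 in ESCs and 79.2, 116.7, 147 and 169 in EpiLCs. XGFP+ PGCLCs held 38.1, 21.3, 26.8 and 13.4 and XGFP- PGCLCs 51.1, 66.04, 37.5 and 25.8. EpiLCs stood above the rest, while the lower 3 groups overlapped from neighbour to neighbour. Over the 10 genes, 18 of 30 neighbouring pairs of groups did not overlap and 12 did. The share of such pairs over all genes was not computed, so these counts are a description only.

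**Figure D1:**
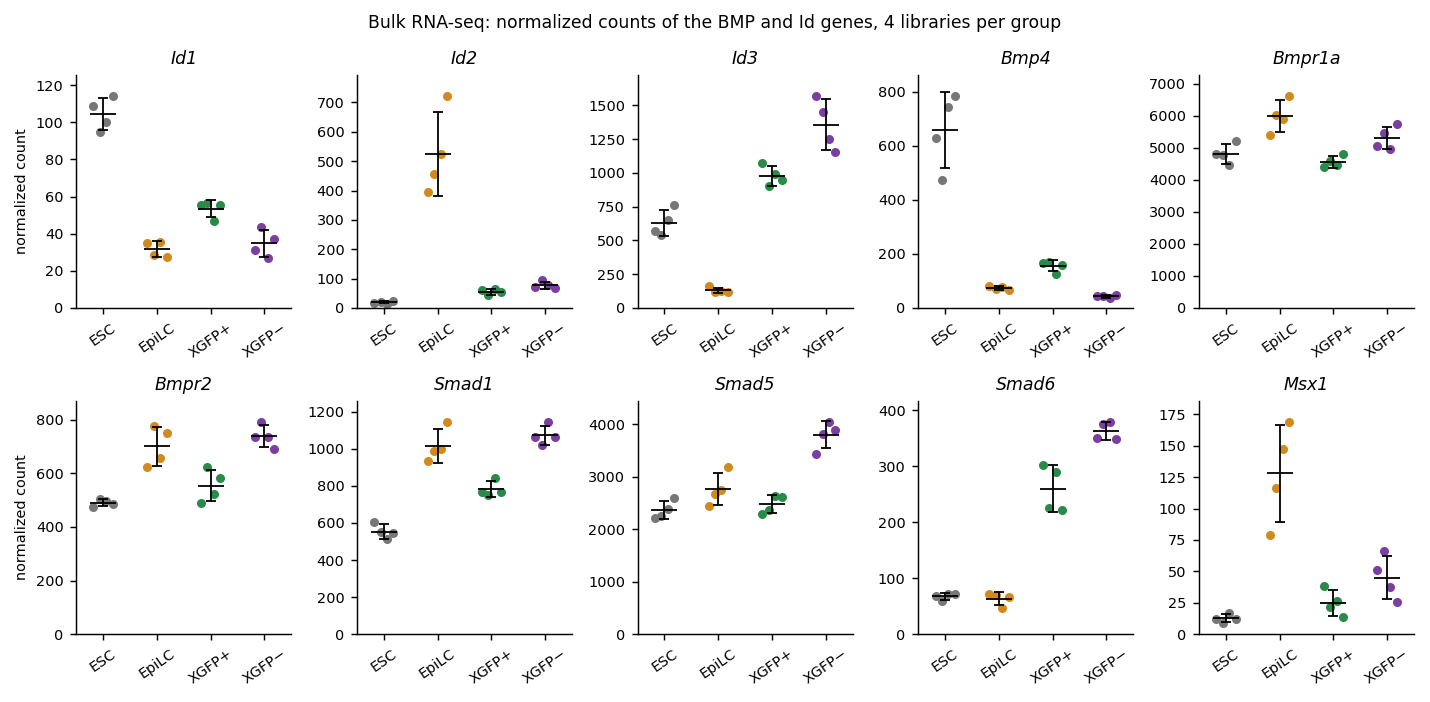
Normalized counts (y axis, linear, starting at 0) of the 10 genes in each bulk library of the 4 groups (x axis), with the group mean as a line and the SD as a bar (n = 4). Id1, Id2 and Id3 peak in different groups, Bmp4 falls from 658 in ESCs to 43.04 in XGFP- PGCLCs, and Bmpr1a stays between 4390.1 and 6627.

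The step from ESCs to EpiLCs compares cells before and after EpiLC culture, in which medium and cell state changed together. The ligand *Bmp4* and the inhibitors *Id1* and *Id3* fell while *Id2* and *Msx1* rose. *Id2* rose by 4.68 on the log2 scale (SE 0.20, adjusted p = 4.07e-13), from 19.3 ± 3.86 to 524 ± 142.4 normalized counts (SD, n = 4). *Msx1* rose by 3.22 (SE 0.33, adjusted p = 7.25e-08). *Bmp4* fell by 3.12 (SE 0.16, adjusted p = 3.43e-12), *Id3* fell by 2.25 (SE 0.12, adjusted p = 8.74e-12) and *Id1* fell by 1.69 (SE 0.17, adjusted p = 6.82e-08). *Smad1*, *Bmpr2* and *Bmpr1a* rose by 0.87, 0.51 and 0.31. The *Smad5* difference was 0.22 (adjusted p = 0.0179) and that of *Smad6* -0.11 (95% interval -0.41 to 0.20), and neither passed. Changes are differences of log2(normalized count + 1), a scale that understates the change of low genes, tested with limma over 16281 genes at an adjusted p below 0.001. Of the 10 genes, 5 rose and 3 fell, where 24.9% of all genes tested rose and 22.9% fell, 47.8% in all. The libraries of these 8 genes did not overlap between the groups, as was so of 31.2% of all genes upwards and 29.5% downwards. The *Bmpr1a* call was lost without ESC replicate 1, 2 or 3 or EpiLC replicate 2, 3 or 4, with an adjusted p of up to 0.00192 without EpiLC replicate 4.

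The step from EpiLCs to XGFP+ PGCLCs, whose musculus X reporter is on, moved several of these genes back towards or past their ESC levels. *Id3* rose by 2.89 (SE 0.12, adjusted p = 2.77e-13), *Smad6* by 2.02 (SE 0.15, adjusted p = 4.06e-10) and *Bmp4* by 1.07 (SE 0.16, adjusted p = 5.99e-06). *Id2* fell by 3.197 (SE 0.20, adjusted p = 6.23e-11) and *Msx1* fell by 2.35 (SE 0.33, adjusted p = 3.24e-06), and *Bmpr1a* and *Smad1* fell by 0.39 and 0.37. *Id1* rose by 0.74 (SE 0.17, adjusted p = 0.000759), a call that held in 15 of 27 alternatives and was lost without XGFP+ replicate 1, 2 or 4, EpiLC replicate 1, 2 or 4, or ESC replicate 1, 3 or 4, with an adjusted p of up to 0.00313 without EpiLC replicate 4. *Bmpr2* (-0.34, adjusted p = 0.00177) and *Smad5* (-0.16, adjusted p = 0.0813) did not pass by limma, although the *Bmpr2* libraries did not overlap. *Bmpr2* passed with DESeq2 (adjusted p = 3e-04), under quantile normalization (adjusted p = 0.00045), and without XGFP+ replicate 2 (adjusted p = 0.000697) or EpiLC replicate 1 (adjusted p = 0.000732). In all, 4 genes rose and 4 fell, against 27.8% and 29.5% of all genes tested (57.3% in either direction). The libraries of 4 genes lay wholly higher and those of 5 wholly lower, as they did for 33.8% and 36.1% of all genes.

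The step from EpiLCs to XGFP- PGCLCs, in which the musculus reporter is silent, shares its EpiLC libraries with the previous one and is given beside it. *Id3* rose by 3.36 (SE 0.12, adjusted p = 2.5e-14), *Smad6* by 2.52 (SE 0.15, adjusted p = 1.39e-11) and *Smad5* by 0.46 (SE 0.08, adjusted p = 3.18e-05). *Id2* fell by 2.71 (SE 0.20, adjusted p = 4.75e-10), *Msx1* fell by 1.51 (SE 0.33, adjusted p = 0.000384) and *Bmp4* fell by 0.76 (SE 0.16, adjusted p = 0.00023). Here *Id1* showed a difference of 0.11 with a 95% interval of -0.25 to 0.47, and *Bmpr1a*, *Bmpr2* and *Smad1* lay between -0.17 and 0.08. The 3 genes that rose and the 3 that fell compare with 29.9% and 31.9% of all genes (61.9% in either direction), and their libraries did not overlap, as was so of 35.5% of all genes upwards and 38% downwards. Without XGFP- replicate 3 neither *Bmp4* (adjusted p = 0.00117) nor *Msx1* (adjusted p = 0.00157) passed, which left *Id2* alone among the genes that fell. The *Bmp4* call was also lost without EpiLC replicate 1 (adjusted p = 0.00101), and the *Msx1* call without XGFP- replicate 4 or EpiLC replicate 2, 3 or 4 (adjusted p of up to 0.00211). Under quantile normalization the *Bmp4* difference was -0.325 (adjusted p = 0.0584) and that of *Msx1* -1.13 (adjusted p = 0.00561), and neither passed by limma.

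The direct comparison of XGFP- with XGFP+ PGCLCs asks how the state of the X chromosome went with these genes. *Bmp4* was lower in XGFP- cells, by 1.83 on the log2 scale or 3.56-fold (SE 0.16, adjusted p = 4.08e-08), with every XGFP- library below every XGFP+ library. *Smad5*, *Smad1* and *Bmpr2*, which carry and receive the signal, were higher in XGFP- cells by 0.62 (SE 0.08, adjusted p = 4.45e-06), 0.45 (SE 0.07, adjusted p = 7.02e-05) and 0.42 (SE 0.09, adjusted p = 0.000651). The targets gave differences of 0.46 for *Id3* (adjusted p = 0.00407), 0.49 for *Smad6* (adjusted p = 0.0089), 0.48 for *Id2* (adjusted p = 0.0544), 0.84 for *Msx1* (adjusted p = 0.0416) and -0.63 for *Id1* (adjusted p = 0.00559), none of which passed by limma. DESeq2 called *Id3* (0.47, adjusted p = 0.000412) and *Smad6* (0.48, adjusted p = 0.000598) at the same threshold. The libraries of 7 genes lay wholly higher in XGFP- cells and those of *Bmp4* and *Id1* wholly lower, which 24% and 21.7% of all genes did in those directions, and the *Msx1* libraries overlapped. By the test, 3 genes rose and 1 fell, where 11.3% and 12.5% of all genes did (23.8% in either direction), and the median difference was 0.46 over the 10 genes and 0.0134 over all genes. The 10 genes were chosen with earlier results of these data known, which limits what their contrast with all genes can show. The replicate numbers paired these groups, and with the replicate as a block *Bmpr1a* also passed (0.22, adjusted p = 0.000672). In the blocked fit of these 8 libraries alone, 5 genes rose, *Id3* (adjusted p = 0.000106) and *Bmpr1a* (adjusted p = 0.000548) being the added ones. Of all 16281 genes, 2724 rose in that fit. The *Bmpr2* call held in 17 of 28 alternatives. It was lost with edgeR (adjusted p = 0.00128) and by limma under quantile normalization (adjusted p = 0.00163) or TMM scaling (adjusted p = 0.00119). It was also lost in the unblocked limma fit of these 8 libraries alone (adjusted p = 0.00178) and with a log2 change above 1 required. The same held without XGFP+ replicate 1, 3 or 4 or XGFP- replicate 1, 2 or 3, with an adjusted p of up to 0.00354 without XGFP- replicate 2. Naive ESC markers moved with the same contrast, summing to 53450 to 62670 in XGFP+ and 34160 to 41040 in XGFP- cells, and their part in the result was not tested.

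XGFP+ PGCLCs were also set against the ESCs they came from, since both have the musculus X reporter on. *Smad6* was higher by 1.92 (SE 0.15, adjusted p = 1.3e-09), *Id2* by 1.48 (SE 0.20, adjusted p = 2.85e-06), *Id3* by 0.64 (SE 0.12, adjusted p = 0.000123) and *Smad1* by 0.50 (SE 0.07, adjusted p = 8.62e-06). *Bmp4* was lower by 4.15-fold and *Id1* by 1.93-fold (adjusted p = 1.48e-09 and 7.56e-05). The 4 genes higher and 2 lower stand against 25% and 24.9% of all genes (49.9% in either direction), with libraries that did not overlap, as was so of 30.8% and 31.6% of all genes, and *Bmpr1a*, *Bmpr2*, *Smad5* and *Msx1* did not pass. *Bmp4* was the only one of the 10 genes to pass in all 5 comparisons by limma, which share groups and are not independent of each other, and its call in XGFP- PGCLCs against EpiLCs was lost under quantile normalization. The share of all genes that passed in all 5 was not computed.

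**Figure D2:**
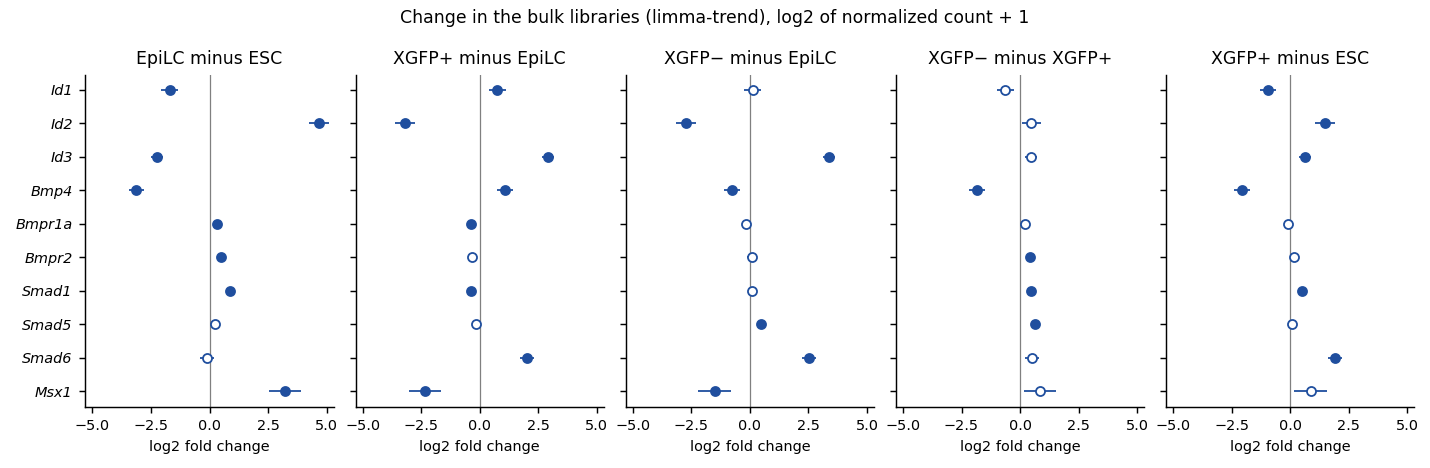
Log2 fold changes (x axis) of the 10 genes in the 5 bulk comparisons, with 95% intervals from limma as bars and filled points for an adjusted p below 0.001. Id2 and Msx1 lie far to the right in EpiLCs against ESCs and to the left in both PGCLC groups against EpiLCs, and Bmp4 lies at -1.83 between the PGCLC groups.

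The rest of the pathway was followed in 55 genes, of which 33 passed the filter on low counts. In EpiLCs against ESCs, 16 of the 33 rose and 5 fell, beside 24.9% and 22.9% of all genes. Against EpiLCs, 10 rose and 10 fell in XGFP+ PGCLCs (27.8% and 29.5% of all genes), and 10 rose and 13 fell in XGFP- PGCLCs (29.9% and 31.9%). Between the PGCLC groups 8 were higher and 5 lower in XGFP- cells (11.3% and 12.5% of all genes), and against ESCs 12 were higher and 8 lower in XGFP+ PGCLCs (25% and 24.9%). *Gata2*, *Rgmb* and *Tbx3* passed in all 5 comparisons, a share that was not computed over all genes.

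Of 13 further ligand genes, 3 were tested, and *Bmp7* was the abundant one. Its counts in libraries 1 to 4 were 193, 179.8, 239 and 201 in ESCs and 200.4, 251, 246 and 329 in EpiLCs. The XGFP+ libraries held 701, 600.8, 811 and 655 and the XGFP- libraries 2198, 1920.3, 1943 and 1831.5. ESCs and EpiLCs overlapped, and the PGCLC groups stood apart above them and from each other. Between the PGCLC groups *Bmp7* differed by 1.52, being higher in XGFP- cells (adjusted p = 3.98e-08), the opposite direction to *Bmp4*, and it was higher in XGFP+ PGCLCs than in EpiLCs by 1.44 (adjusted p = 1.01e-08).

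All 8 further receptors and co-receptors were tested. *Rgma* and *Rgmb* encode co-receptors that bind BMP ligands, and endoglin (*Eng*) is a co-receptor best known from blood vessels. *Rgma* was at 60.95 ± 17.2 in EpiLCs, and its PGCLC means were 102 ± 19.4 in XGFP+ and 367 ± 24.6 in XGFP- cells (SD, n = 4), a difference of 1.84 (adjusted p = 8.01e-06). *Rgmb* climbed from 140.8 ± 9.70 in ESCs to 237 ± 52.9, 380.1 ± 32.7 and 679 ± 31.2 in the same order. *Eng* went the other way, from 943 ± 177 in EpiLCs to 469 ± 64.3 in XGFP+ cells and 186 ± 30.6 in XGFP- cells, a difference of -1.33 between the PGCLC groups (adjusted p = 9.07e-07). *Acvr2b*, a type II receptor gene, was at 541 ± 24.7 in ESCs, 773 ± 28.6 in EpiLCs and 1065 ± 56.4 in XGFP+ PGCLCs.

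The inhibitory *Smad7* did not follow *Smad6*. It fell from 3706 ± 199 in ESCs to 1587 ± 250.05 in EpiLCs (-1.24, adjusted p = 6.98e-10), and the differences of both PGCLC groups from EpiLCs, 0.22 and 0.29, did not pass. *Smad4*, the partner of all receptor-activated SMADs, was at 2883 ± 186 in ESCs and 4202 ± 297 in EpiLCs (0.54, adjusted p = 7.25e-07).

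Of 11 extracellular antagonist genes, 4 were tested, and 3 of them (*Fst*, *Twsg1* and *Chrd*, the last named here after its values were seen) rose in EpiLCs and fell in both PGCLC groups. Of all genes tested, 24.9% rose in EpiLCs against ESCs. From EpiLCs, 29.5% fell in XGFP+ and 31.9% in XGFP- cells. The share of all genes that did all of this was not computed. Follistatin, the product of *Fst*, binds activins and some BMPs outside the cell. *Fst* was at 47.1 ± 8.48 in ESCs and 3562 ± 1076 in EpiLCs, and at 24.8 ± 5.57 and 63.7 ± 16.1 in the XGFP+ and XGFP- cells, a rise of 6.18 (adjusted p = 3.36e-14) and falls of 7.09 and 5.77. Its EpiLC libraries held 2507, 3163, 3534 and 5045, above every library of the other groups. *Twsg1* was at 1099 ± 193 in ESCs and 1995 ± 174 in EpiLCs, and its difference between XGFP- and XGFP+ cells was -0.51 (adjusted p = 0.000727).

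Among 8 genes that restrain the signal in the cell or at its membrane, 6 rose and 1 fell in EpiLCs, beside 24.9% and 22.9% of all genes. The co-repressor gene *Skil* rose from 2420.1 ± 487 to 12377 ± 1044 (2.37, adjusted p = 6.35e-12), while *Tob1*, whose product binds SMADs, fell by 1.165. *Bambi*, a decoy receptor gene, fell from 549 ± 25.5 in EpiLCs to 210.1 ± 17.1 in XGFP+ cells and 228 ± 6.19 in XGFP- cells. *Smurf1*, which encodes a ubiquitin ligase for SMAD1 and SMAD5, was at 1033 ± 54.2 in XGFP+ and 509 ± 19.6 in XGFP- cells and was the only brake to pass between them (-1.02, adjusted p = 5.87e-10). Of all genes, 23.8% passed between the PGCLC groups.

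Of 9 further target genes, 5 were tested. *Gata2* rose from 9.01 ± 3.95 in EpiLCs to 478 ± 100.7 in XGFP+ cells and 1238 ± 205 in XGFP- cells, by 5.65 and 7.03 (adjusted p = 2.34e-12 and 8.55e-14). *Msx2*, the relative of *Msx1*, was at 9.90 ± 5.41 in EpiLCs, 69.7 ± 18.7 in XGFP+ cells and 389 ± 51.3 in XGFP- cells and so rose where *Msx1* fell. *Tbx3*, also a gene of naive pluripotency, ran from 4156 ± 746 in ESCs to 49.5 ± 13.2, 239 ± 62.5 and 9.76 ± 2.83 in EpiLCs, XGFP+ and XGFP- PGCLCs, the order seen for *Bmp4*. *Id4* fell from 304 ± 33.2 in ESCs to 24.1 ± 5.76 in EpiLCs (-3.62, adjusted p = 3.95e-12). The 3 genes of E proteins, which Id proteins bind, passed as lower in no comparison: *Tcf3* was at 3201 ± 264 in EpiLCs and 6113 ± 267 in XGFP- PGCLCs, and *Tcf12* and *Tcf4* were higher in XGFP- than in XGFP+ cells by 0.67 and 0.49. Depending on the comparison, 12.5% to 31.9% of all genes passed as lower.

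**Figure D3:**
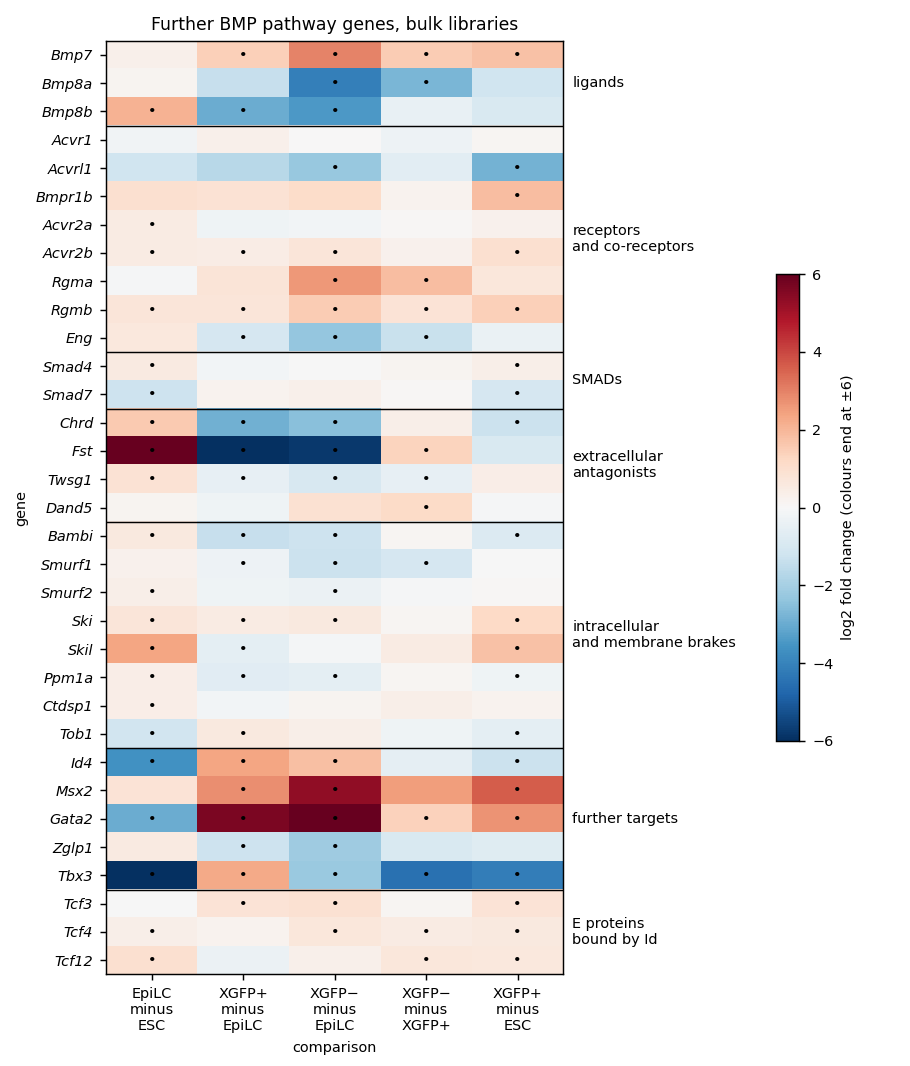
Log2 fold changes (colour, ending at 6 in either direction) of the 33 further pathway genes (rows, grouped by role) in the 5 bulk comparisons (columns). A dot marks an adjusted p below 0.001 by limma. Fst and Tbx3 show the deepest colours in EpiLCs against ESCs, and Bmp7 and Gata2 carry dots for a rise from EpiLCs in both PGCLC groups and for the difference between them.

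In rOvaries, 462 of 518 sorted cells passed the filter, 88 of them XGFP+ constitutive, and 15 to 19 wells of each of the other populations did not. With 1 sample per population no test was possible, and levels are CPM, the reads of a gene summed over cells and scaled to a total of 1000000 reads on genes, with exact 95% Poisson intervals that cover counting error only, since reads carried no molecular identifiers. The populations differed in median reads per cell, 354149 for XGFP+ constitutive cells against 636623 to 645474 for the others. They also differed in sequencing lane, all 88 XGFP+ constitutive cells being from lane 2 and most others from lane 3. Empty wells held no read of the 10 genes.

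*Id3* was the most abundant Id gene in the rOvary cells, with a summed level of 78.5 CPM (75.4 to 81.6) in XGFP+ constitutive cells and 131.2 (128.7 to 133.7), 166 (163 to 168) and 249 (245 to 252) in XGFPhigh, XGFPintermediate and XGFPlow cells. The share of cells with a read lay between 66.1% and 69.5%, and the median among cells with a read was 65, 113.6, 149 and 233.5 CPM. Depth per cell differed between the populations, so similar shares do not show similar shares of expressing cells. Among lane 2 cells the shares were 69.3%, 64.3%, 87.5% and 66.7%. *Id1* was at 11.01, 12.8, 17.7 and 46.7 CPM in the same order, with reads in 26.1%, 29.6%, 27.3% and 39.7% of cells. In lane 2 alone, which holds 14 to 16 cells of the last 3 populations, these orders did not hold. There *Id3* was at 78.5, 196.6, 257.1 and 155.8 CPM and *Id1* at 11.01, 4.82, 46.5 and 36.9. In lane 3 the last 3 populations had 120.1, 148.2 and 262.5 CPM of *Id3* and 14.15, 12.3 and 48.15 of *Id1*.

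*Id2* differed between the populations in its summed level, and in its share of cells between XGFP+ constitutive or XGFPhigh cells and the other populations. Its summed level was 25.4 CPM (23.6 to 27.2) in XGFP+ constitutive, 3.79 (3.38 to 4.23) in XGFPhigh, 41.9 (40.5 to 43.3) in XGFPintermediate and 103.9 (101.7 to 106.2) in XGFPlow cells. Reads were found in 15.9% of XGFP+ constitutive cells (exact Clopper-Pearson 95% interval 8.98 to 25.2), 12.8% of XGFPhigh (7.5 to 20), 34.4% of XGFPintermediate (26.2 to 43.3) and 42.1% of XGFPlow cells (33.2 to 51.5). With each cell thinned to 50000 reads the shares were 11.4%, 8.0%, 29.7% and 33.9%. Before thinning, the upper bounds of XGFP+ constitutive and XGFPhigh cells lay below the lower bounds of XGFPintermediate and XGFPlow cells. These intervals cover the sampling of cells within a sample only, since cells are not replicates, and so cannot show a difference between populations. In lane 2 alone, the only lane with XGFP+ constitutive cells, the shares were 15.9%, 7.14%, 31.2% and 33.3%. There the intervals of all populations overlapped.

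*Bmp4* was rare. Reads were found in 18.2%, 11.2%, 10.2% and 8.26% of cells, at 6.62, 3.98, 9.47 and 15.7 CPM, against 95.8% of 24 single ESCs at 57.8 CPM. The single ESCs were read deeper, at a median of 1103780 reads per cell against 354149 to 645474. None of them was from lane 2 or lane 3. Their share of cells with a read is therefore not on an equal footing. A single cell held 59.1% of the *Bmp4* reads of the XGFPintermediate population, whose level was 3.93 without it. *Bmpr1a* was found in nearly every cell (100%, 96.0%, 89.8% and 91.7%) at 56.6 to 89.8 CPM, and *Smad1* and *Smad5* in 68.2% to 79.5% of cells. *Smad1* was at 27.01, 22.3, 50.5 and 57.97 CPM and *Smad5* at 26.02, 28.4, 42.4 and 43.9. *Smad6* (3.66 to 6.26 CPM) and *Bmpr2* (2.41 to 6.30 CPM) stayed under or near the filter of a mean of 5 CPM and were not compared. *Bmpr2* had a read in 0 of 24 single ESCs, which allows a share of up to 14.2% of cells, while the bulk ESC libraries held 474 to 505 normalized counts of it, so that no level is read from these cells. *Msx1* was at 8.02, 16.04, 20.3 and 20.5 CPM, with reads in 28.4%, 32.8%, 46.9% and 33.9% of cells.

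**Figure D4:**
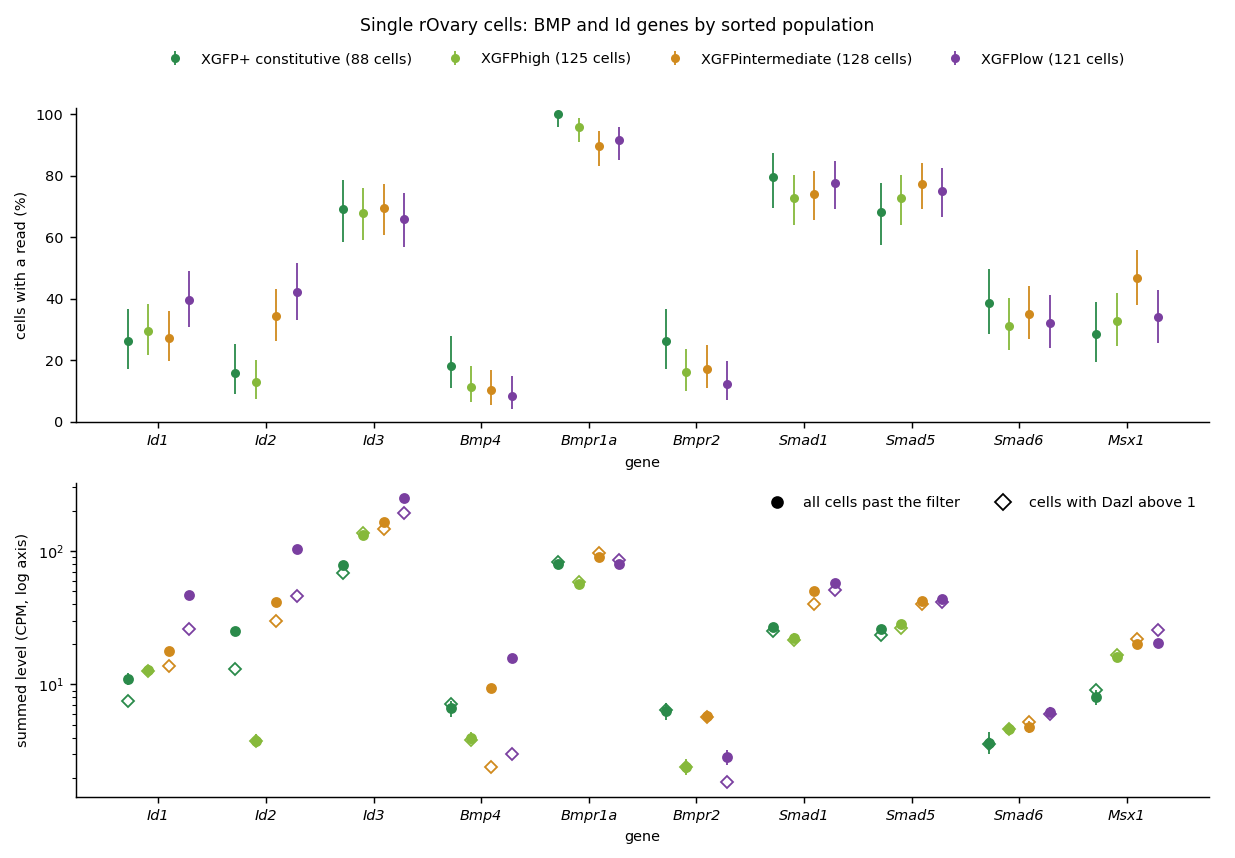
Percent of cells with a read (upper panel, with exact 95% intervals) and summed level in CPM (lower panel, log axis, with exact Poisson intervals for counting error) of the 10 genes in the 4 sorted rOvary populations. In the lower panel, filled circles are all cells past the filter and open diamonds the cells of Dazl above 1. Id2 dips to 3.79 CPM in XGFPhigh cells and reaches 103.9 in XGFPlow cells, while the share of cells with an Id3 read stays between 66.1% and 69.5%.

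Past a limit of 2-fold on the summed levels, XGFPhigh cells had less *Id2* than XGFP+ constitutive cells (ratio 0.149) and *Msx1* at the limit itself (ratio 2.00), where 2.05% of 10195 genes were past it upwards and 2.88% downwards (4.93% in all). Against XGFPintermediate cells, XGFPhigh cells had less *Id2* (ratio 0.0905), *Bmp4* (0.421) and *Smad1* (0.442), where 13.1% of genes were past it downwards, 5.75% upwards and 18.8% in all. XGFPintermediate cells had less *Id1* (ratio 0.380) and *Id2* (0.403) than XGFPlow cells, where 3.84% of genes were past it downwards, 4.23% upwards and 8.06% in all. In lane 2 alone the *Id1* direction was reversed, as given above. The *Msx1* ratio was under the limit without the cell of most *Msx1* reads, and without that of most *Bmp4* reads *Bmp4* was within it, at 2.74 against 3.93 CPM in XGFPhigh and XGFPintermediate cells. Among cells of *Dazl* above 1, described next, the *Bmp4* direction turned, with 3.85 CPM in XGFPhigh and 2.43 CPM in XGFPintermediate cells.

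*Dazl*, a germ cell gene, was at or below a natural-log normalized level of 1 in 12, 7, 12 and 30 cells of the populations. The study set its limit at 1 on a log2 scale, and 3, 2, 1 and 0 cells lay between these limits. Among cells above the cut, *Id2* was at 13.1, 3.78, 29.9 and 45.7 CPM and *Id1* at 7.54, 12.6, 13.8 and 25.8. *Id3* kept its order there, at 68.9, 135.5, 146 and 194 CPM, and *Bmp4* was at 7.18, 3.85, 2.43 and 3.00. *Id2* was then the only gene past the limit, lower in XGFPhigh cells than in XGFP+ constitutive and XGFPintermediate cells, and no gene was past it between XGFPintermediate and XGFPlow cells, and the limit on the log2 scale gave the same. In XGFP+ constitutive cells of *Dazl* above 1, a single cell held 49.6% of the *Id2* reads, and the level was 6.67 CPM without it. Against the 3.78 CPM of all such XGFPhigh cells, that level is within the 2-fold limit. These *Bmp4* levels rested on 14, 13, 9 and 5 cells with a read. In the 30 XGFPlow cells at or below the cut, *Id2* reached 298 CPM, *Id1* 116.3 and *Bmp4* 58.2, from 10, 11 and 5 cells with a read. Without the cell of most reads of each gene the levels were 190 CPM for *Id2*, 70.7 for *Id1* and 37.96 for *Bmp4*.

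Gonadal somatic markers summed to 17.9, 13.1, 211 and 89.6 CPM in the populations and to 13.2, 12.4, 12.2 and 17.8 among cells of *Dazl* above 1. *Foxl2*, *Gata4* and *Col1a1* were at 0 in XGFP+ constitutive cells, and *Lhx9* in XGFPintermediate and XGFPlow cells. A sum above 1000 CPM was found in 4 XGFPintermediate and 3 XGFPlow cells, all at or below the *Dazl* cut, and these held at most 8.33% of the reads of any of the 10 genes in a population. No list of mesonephric markers was used. Germ cell markers summed to 3239 to 4409 CPM in the 4 populations, and naive ESC markers to 964, 1255, 217 and 275. In cells at or below the *Dazl* cut, germ cell markers, *Dazl* among them, summed to 873, 937, 205 and 681 CPM. Above the cut the sums were 3742, 3376, 4892 and 4222. Gonadal somatic markers summed to 51.6, 26, 1941 and 329 CPM at or below the cut, where the median cell held 28.05, 14.2, 28.2 and 0. The part of these cells in the *Id* and *Bmp4* levels was not tested.

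**Figure D5:**
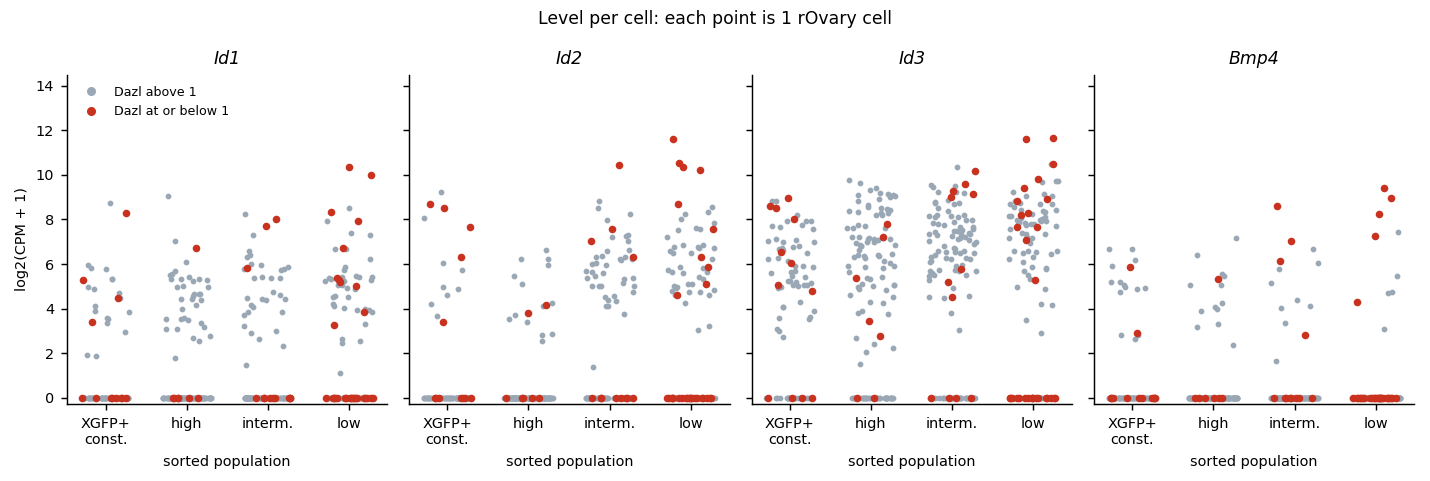
Level of Id1, Id2, Id3 and Bmp4 in every rOvary cell past the filter, by sorted population, on the scale log2(CPM + 1), with cells of Dazl above 1 in grey and at or below 1 in red. The highest Id2 cell of XGFPlow reaches 3160 CPM, and the reads of Id1, Id2 and Bmp4 sit in few cells while those of Id3 are spread over most.

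Allele-specific values were given for a single gene of the 10, *Smad5*, an autosomal gene. The share of its reads from the musculus allele was 0.417, 0.381, 0.382 and 0.424 in ESCs and 0.394, 0.417, 0.409 and 0.412 in EpiLCs, then 0.434, 0.435, 0.449 and 0.416 in XGFP+ cells and 0.438, 0.436, 0.467 and 0.432 in XGFP- cells. All shares were below an even split. XGFP- PGCLCs lay above ESCs without overlap, by 0.0422 (exact permutation test, two-sided p = 0.0286, the smallest that 4 against 4 libraries allow, and 0.0572 adjusted over the 2 comparisons made). Between the PGCLC groups the difference was 0.00968 (exact permutation p = 0.4). With same-numbered libraries paired, the share was higher in the XGFP- library in 4 of 4 pairs, and the exact two-sided sign-flip p was 0.125, the smallest that 4 pairs allow. The number of reads behind these shares is unknown, so no counting interval can be given.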

How the data were processed

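Per the labels, stranded total RNA of 16 bulk libraries and SMART-seq2 libraries of single sorted cells were sequenced in pairs of 125 and 100 bases. The study's methods name another SMART-Seq kit and a shorter read length for the single cells, and which holds was not settled. Per the study's methods, the authors mapped bulk reads with STAR to an mm10 genome masked at strain differences. The submitters' processing notes name HTSeq 0.6.1 and DESeq2 1.16. The bulk values used here are a signal the authors deposited: gene counts divided by DESeq2 size factors, neither logged nor per length. Dividing by the smallest step of each library returned whole reads for 100% of values (tolerance 0.01 reads). The authors deposited allelic values as a fraction of reads from the musculus allele, and single-cell values as raw counts per gene and well. The counter's strand setting and the single-cell counting tool are not given in the sources used here. Single-cell reads carry no molecular identifiers.

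Groups came from the sample labels. Genes with a mean normalized count above 10 (16281 of 16335) were tested with limma 3.58.1 (limma-trend, R 4.3.3) on log2(normalized count + 1) over all 16 libraries with 4 group means, and p-values were adjusted by the Benjamini-Hochberg method over all genes tested. edgeR 4.0.16 and DESeq2 1.42.0 on recovered reads, other scalings and filters, a replicate block and leaving out each library were alternatives. Deviations from the group means correlated between same-numbered XGFP+ and XGFP- libraries at 0.253, 0.135, 0.2 and 0.307, so the numbers pair these groups. For other pairs of groups the correlations ran from -0.0105 to 0.16 and not every pair passed 0.1. Most of them were above the mean correlation with libraries of other numbers, which ran from -0.0493 to 0.00231. A weaker pairing of those groups is therefore possible. The fits were tested on simulated data.

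Wells were kept from 4000 detected genes and 10000 reads upwards, with a mitochondrial share of up to 5%. Wells hold a single sorted cell, and no doublet caller was run. Reads were summed per population, and genes with a mean of at least 5 CPM over the 4 populations were compared. The 10 genes and all gene lists were chosen with earlier results of these data known. Text on the wider pathway names, per list and comparison, up to 2 passing genes of the largest change with a mean count above 100, and genes passing in all 5 comparisons. For *Id1*, *Id2*, *Id3*, *Bmp4* and *Smad6*, the 3 genes of the highest Pearson r over the libraries are named. Of the allelic values, 4 per-sample columns match none of the samples and were not used, and *Fst*, whose share is 1.0 in a library, was left out. Promoters and gene models came from RefSeq and GENCODE tables of GRCm38.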

Additional observations from a re-analysis of the deposited data

Results flagged for a closer look

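A library stood apart from the other 3 of its group in 2 of the 44 groups of 4 values examined by Dixon's test at the 95% level, where chance gives about 1 in 20. *Id1* in XGFP+ PGCLC replicate 3 was 46.9 normalized counts, below 55.3 to 56.3 in the other libraries. *Id3* in EpiLC replicate 1 was 160 normalized counts, above 119.65 to 124.2 in the others.

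The change from EpiLCs differed between XGFP- and XGFP+ PGCLCs for 4 genes, by the limma contrast between the PGCLC groups, which is this difference since both share the EpiLC libraries. The difference was -1.83 on the log2 scale for *Bmp4*, which rose in XGFP+ and fell in XGFP- PGCLCs. It was 0.417 for *Bmpr2*, 0.452 for *Smad1* and 0.618 for *Smad5*, adjusted p from 4.45e-06 to 0.000651.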

How the results depend on the processing

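Over single genes and comparisons in the bulk data, 1360 values from alternatives kept their direction and side of the threshold, 56 lost the call, 20 gained it and 4 turned in direction, none of the last called. Those were *Bmpr2* (-0.0195) and *Smad1* (-0.0250) in XGFP- PGCLCs against EpiLCs under quantile normalization, *Smad6* in EpiLCs against ESCs without EpiLC replicate 3 (-0.1704 to 0.0295 over the libraries left out) and *Id1* in XGFP- PGCLCs against EpiLCs without XGFP- replicate 2 (-0.00252 to 0.224 over the libraries left out). The causes of the changes were not tested unless the setting itself shows them. Counts of genes called that moved by over 1.5 times were the following. With a log2 change above 1 also required, 2 genes rose in EpiLCs against ESCs, 2 fell in XGFP+ PGCLCs against EpiLCs, 0 rose in XGFP- against XGFP+ PGCLCs (limma, 3 without the limit), and 2 rose and 1 fell in XGFP+ PGCLCs against ESCs. Of all 16281 genes, 2381, 2586, 662, 2163 and 1867 did so, in the same order. In XGFP- PGCLCs against EpiLCs, 1 gene fell under quantile normalization and 1 fell with a replicate block among these libraries alone, and leaving out a library gave 1 to 3. Of all 16281 genes, 4995 fell under that normalization and 4983 with that block. In XGFP- against XGFP+ PGCLCs, 5 rose with DESeq2 (*Id3* and *Smad6* added), 5 rose with the replicate block in these groups alone, and at an adjusted p below 0.05 there were 7 higher and 2 lower, beside 25% and 23.6% of all genes. Of all 16281 genes, 2552 rose there with DESeq2 and 2724 with the block. With a mean above 100 required, 1 fell in XGFP+ PGCLCs against ESCs, *Id1* not being tested, beside 3268 of 11702 genes. The replicate number pairs the PGCLC groups most clearly and may pair other groups more weakly. By limma with it as a block over all 16 libraries, *Smad5* passed in EpiLCs against ESCs (adjusted p = 0.000788). In XGFP+ PGCLCs against EpiLCs, *Bmpr2* passed (adjusted p = 0.000481) and *Id1* did not (adjusted p = 0.00158). That block changed no other call beyond that of *Bmpr1a* given above. By limma, edgeR and DESeq2, 3873, 3974 and 5051 genes of all tested differed between the PGCLC groups.

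A log2 *Dazl* limit, added after seeing the data, gave the counts of the natural-log one. In single cells, XGFPhigh against XGFP+ constitutive cells had 0 genes higher with no filter on cells, with *Dazl* above 1 and without the cell of most reads, 2 in lane 2 and 2 at a limit of 1.5-fold; 3 lower in lane 2, 2 with no filter on low values and 2 at 1.5-fold. Against XGFPintermediate cells, XGFPhigh cells had 1 higher and 6 lower in lane 2, 1 lower in lane 3 and 1 lower with *Dazl* above 1. XGFPintermediate against XGFPlow cells had 3 higher and 1 lower in lane 2, 1 higher with no filter on low values, 0 lower with *Dazl* above 1 and 4 lower at 1.5-fold. Lane 2 holds 14 to 16 cells of the latter 3 populations, and lane 3 gives no value for XGFP+ constitutive cells. Reads in over 50% of cells of all 4 populations were found for 4 genes, and for 2 after thinning and 2 in lane 2. The *Smad5* allelic difference of XGFP- PGCLCs from ESCs ran from 0.0343 to 0.05 without 1 library (exact permutation p = 0.0571, the smallest possible) and was 0.0422 with a replicate block (exact p = 0.125), and that from XGFP+ PGCLCs ran from 0.0018 to 0.0149. The low counts of *Id1*, *Id2* in ESCs and *Msx1* limit their precision.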

Other observations

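The genes whose bulk levels followed those of the Id genes, *Bmp4* and *Smad6* most closely over the 16 libraries were listed by Pearson's r on the log2 scale. The libraries fall into 4 groups, so that r mainly reflects the group means, and it is given as a description with no p (Spearman's rho of these genes ran from 0.865 to 0.985). The nearest genes to *Id1* were *Abca1* (r = 0.976), a cholesterol exporter gene, *Nipsnap3b* (0.975) and *Mitf* (0.972), a basic helix-loop-helix factor gene of pigment cells. Those to *Id2* were *Dtx4* (0.987), *Lmo4* (0.985) and *Tpm1* (0.984), and those to *Id3* were *Sox13* (0.992), *Fam169b* (0.992) and *Kirrel* (0.991). *Bmp4* was followed by *Tbx3* (0.99), *Impa2* (0.99) and *Map3k6* (0.987), and *Smad6* by *Ung* (0.991), *Phldb3* (0.99) and *Cyth3* (0.99). No gene stood in more than one of these lists.

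In the rOvary cells, 22 of the further pathway genes with a row passed the filter on low values. *Msx2* was at 32, 20.8, 5.14 and 6.30 CPM in XGFP+ constitutive, XGFPhigh, XGFPintermediate and XGFPlow cells, lower in the last pair, while *Msx1* was at 8.02, 16.04, 20.3 and 20.5. *Bmp7* was at 10.8, 4.43, 20.8 and 25.9 CPM, and *Tcf4*, an E protein gene, at 16.8, 18.2, 54.03 and 44.5. *Tcf12* (60.9 to 91.4 CPM) and *Smad4* (54.97 to 75.4 CPM) were found in all populations. With 1 sample per population, these are values with no test.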
